A study of Mus musculus with 8 samples.

Results

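This report describes 9 genes of the endothelin, angiotensin and adrenergic systems in cultured mouse heart cells: the ligand gene Edn1, its converting enzyme Ece1, the receptor genes Ednra, Ednrb, Agtr1a, Adra1a, Adra1b and Adrb1, and Rcan1, a readout of calcineurin. They were chosen by name, as a ligand and receptors of cardiac hypertrophy with a calcineurin reporter, and each symbol matched 1 Ensembl row among the 29844 rows of the coding gene table. The cells were embryonic cardiomyocytes from B6.Cg-Tg(HIST1H2BB/EGFP)1Pa/J mice, so that every group carries a transgene for a fluorescent histone. Hearts were taken at E18.5 and digested to single cells, which grew for 4 days in medium with 10% serum on a silicone elastomer (PDMS). The soft substrate had about 10 kPa and the stiff substrate about 150 kPa, with 4 libraries on each, named here soft 1 to 4 and stiff 1 to 4. The labels mention no sorting of cardiomyocytes from other heart cells, and they do not say whether libraries came from separate litters or cultures, so that the p-values here speak of differences among these libraries, some of which may be technical.

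Endothelin-1, angiotensin II and noradrenaline are classical triggers of cardiomyocyte growth. Their receptors of the endothelin A, angiotensin type 1 and alpha-1 adrenergic classes couple to Gq, which activates phospholipase C, protein kinase C and calcium release, whereas the beta-1 receptor couples to Gs and cyclic AMP. Raised calcium activates the phosphatase calcineurin, which moves NFAT factors into the nucleus, and Rcan1 is an NFAT target that in turn inhibits calcineurin.

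Libraries held 27646471 to 34693673 coding counts, with 13931 genes detected in stiff 3 and 14697 to 15292 in the other libraries. All 8 cardiomyocyte markers had counts, and they summed to 13007 to 23288 CPM (each library's counts scaled to the same total, with TMM factors) on soft and 13403 to 22365 CPM on stiff. Other heart cells were represented too, with 9 of 9 fibroblast markers at 8322 to 14718 CPM in soft and 7630 to 12178 CPM in stiff libraries, and 8 of 8 smooth muscle and pericyte markers at 1078 to 1647 and 879 to 1456 CPM. The 6 of 6 epicardial markers summed to 557 to 749 CPM in soft and 557 to 671 CPM in stiff libraries, and the 6 of 6 leukocyte markers to 108 to 176 and 105 to 155 CPM. The 5 neural crest and Schwann cell markers, which all had some counts, stayed between 1.71 and 6.13 CPM in every library. The part of these cells in the values below was not tested, and in bulk RNA fewer cells of a type and less RNA per cell cannot be told apart. Exon lengths were not used here, so levels are compared between libraries and not between genes.

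Transcripts of these systems did not differ detectably between soft and stiff. Of the 9 genes, 8 passed the filter on low counts and were tested by edgeR, and 0 were called at an adjusted p under 0.05, against 0% of the 14059 coding genes tested. Their adjusted p was 0.99997 in each case. Below an unadjusted p of 0.05 lay 0 of the 8 and 0.925% of all tested genes (130), or 360 genes with the library number as a replicate block. Uniform p-values would put 5% there, so p-values ran high and the lack of calls does not show that levels were equal. In 0 of the 8 did the soft and stiff libraries stand apart without overlap, as they did in 1.29% of all tested genes. Of the estimates, 4 were higher and 4 lower on stiff, with a median log2 fold change of 0.00 against -0.01 over all tested genes.

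**Figure D1:**
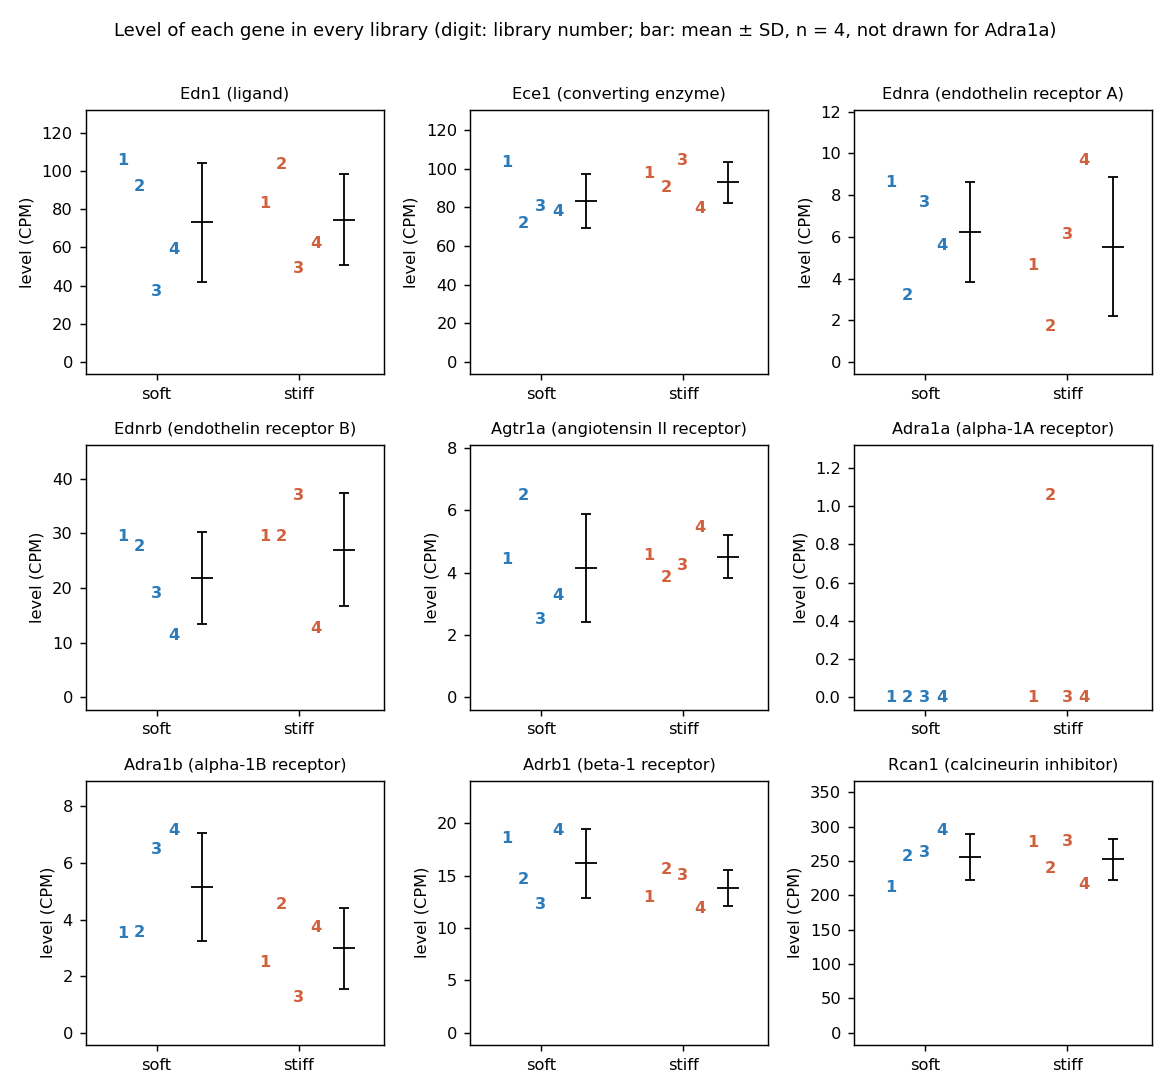
Each panel plots 1 gene, with its level in CPM on the vertical axis, the substrate on the horizontal axis and a digit for each numbered library; bars give the mean and SD of 4 libraries. The soft and stiff libraries overlap for every gene, Edn1 is higher in libraries 1 and 2 than in 3 and 4 on each substrate, and Adra1a is above 0 in stiff 2 alone.

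The ligand gene Edn1 encodes the precursor of endothelin-1, a vasoconstrictor peptide that acts on neighbouring cells. It lies on chromosome 13 from 42301476 to 42307990 on the plus strand (GRCm38.p6). Edn1 stood at 106, 91.7, 36.9 and 58.7 CPM in soft 1 to 4 and at 82.8, 103, 49.2 and 62.1 CPM in stiff 1 to 4. On each substrate, libraries 1 and 2 were above libraries 3 and 4, and all stiff libraries fell inside the soft range. Soft averaged 73.2 ± 31.2 CPM and stiff 74.3 ± 23.8 CPM (SD, n = 4 each). The log2 fold change of Edn1, stiff over soft, was 0.02 (SE 0.31), with an unadjusted 95% interval from 0.642-fold to 1.61-fold.

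Endothelial cells are a main source of endothelin-1 in the heart. Some endothelial transcripts had the order of libraries seen for Edn1, and others did not. The 10 endothelial markers, of which 10 had counts, summed to 291, 298, 212 and 249 CPM in soft 1 to 4 and to 323, 299.6, 226 and 222 CPM in stiff 1 to 4. The sum was thus higher in libraries 1 and 2 than in libraries 3 and 4 on each substrate, over a narrower range than Edn1. Pecam1, an endothelial adhesion molecule, ran from 13.5 to 36.9 CPM among soft and from 18.7 to 36.9 CPM among stiff libraries, with its lowest value in library 3 of each. Singly, 3 of the 10 markers (Pecam1, Flt1 and Emcn) kept the order of the sum on both substrates. In soft 1 these 3 stood at 36.9, 91.7 and 55.8 CPM, against a sum of 291 CPM. The other 7 markers did not keep the order. Among those 7, Cdh5, the endothelial cadherin, was at 21.7 CPM in soft 4 and 10.3 CPM in soft 2, and the receptor gene Tek was highest in library 4 of each substrate, at 28.5 and 45.4 CPM. The order was not particular to endothelial markers. The leukocyte sum kept it too, at 122 to 176 CPM in libraries 1 and 2 against 105 to 117 CPM in 3 and 4. Singly, 2 of the 6 leukocyte markers kept it, and Lyz2, which made up most of the sum, did not. The fibroblast sum had the reverse order. It ran from 7630 to 9106 CPM in libraries 1 and 2 and from 11391 to 14718 CPM in 3 and 4. Singly, 6 of the 9 fibroblast markers had this reverse order, while Pdgfra had the order of Edn1. Pdgfra stood at 276 to 303 CPM in libraries 1 and 2 and at 144 to 252 CPM in 3 and 4. How many of all tested genes share the order of Edn1 was not counted. The part of endothelial or other cells in the spread of Edn1 was not tested.

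**Figure D2:**
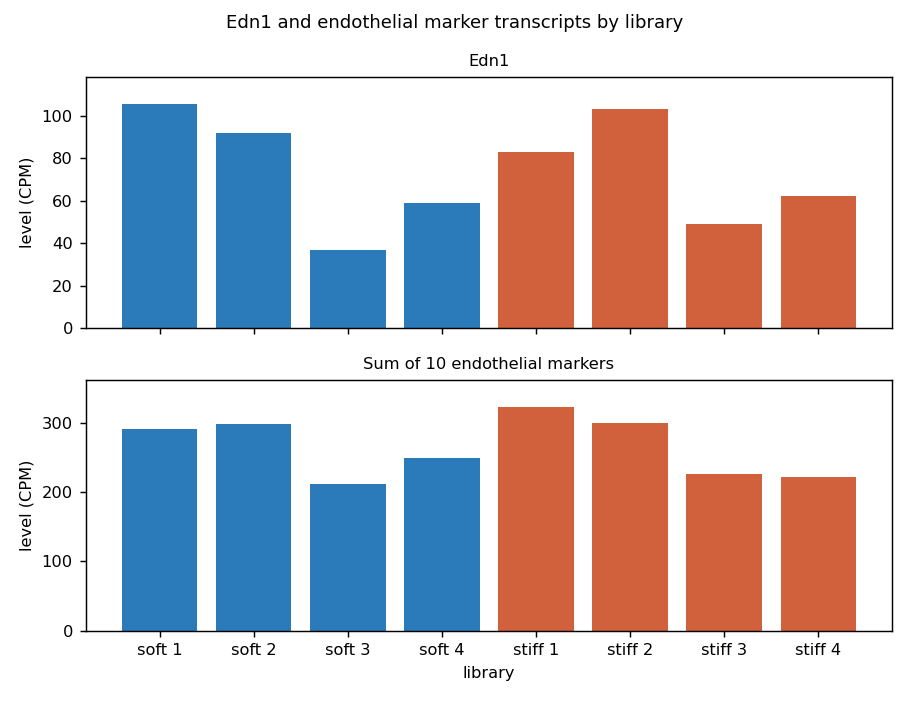
Bars give the level in CPM of Edn1 (top) and the summed level of 10 endothelial markers (bottom) in each of the 8 libraries, soft in blue and stiff in orange. In each panel libraries 1 and 2 exceed libraries 3 and 4 of the same substrate, from 82.8 to 106 against 36.9 to 62.1 CPM for Edn1. Singly, 3 of the 10 markers keep this order.

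Ece1 encodes the membrane protease that cuts the endothelin precursor to the active peptide. The gene lies on chromosome 4 from 137862237 to 137965229 on the plus strand. Ece1 stood at 103, 71.7, 80.2 and 78.1 CPM in soft 1 to 4 and at 97.3, 90.3, 104 and 79.6 CPM in stiff 1 to 4. Soft 1 and soft 3 were within the stiff range, and soft 2 and soft 4 lay below it. Soft averaged 83.3 ± 13.7 CPM and stiff 92.9 ± 10.6 CPM (SD, n = 4 each), which gave 0.16 (SE 0.18) as log2 fold change and an interval from 0.861-fold to 1.44-fold.

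The 2 endothelin receptor genes had opposite estimates, and neither passed the test. Ednra encodes the endothelin A receptor, which signals through Gq in cardiomyocytes and smooth muscle, and lies on chromosome 8 from 77663029 to 77724452 on the minus strand. Ednra stood at 8.59, 3.20, 7.65 and 5.58 CPM in soft 1 to 4 and at 4.65, 1.70, 6.12 and 9.67 CPM in stiff 1 to 4. Stiff held both the lowest and the highest library, and library 2 was the lowest of each substrate. For Ednra the log2 fold change was -0.18 (SE 0.53), with an interval from 0.408-fold to 1.92-fold that rests on 50 to 331 counts per library.

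Ednrb encodes the endothelin B receptor, which clears endothelin and acts in endothelium and in neural crest derivatives, and lies on chromosome 14 from 103814615 to 103844508 on the minus strand. Ednrb stood at 29.5, 27.5, 18.9 and 11.3 CPM in soft 1 to 4 and at 29.4, 29.4, 36.9 and 12.5 CPM in stiff 1 to 4. Library 4 was the lowest on each substrate, and stiff 3 was the only library above the soft range. Soft averaged 21.8 ± 8.39 CPM and stiff 27.0 ± 10.3 CPM (SD, n = 4 each). Its log2 fold change was 0.31 (SE 0.35), the highest estimate of the 8 tested genes, with an interval from 0.746-fold to 2.06-fold.

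Agtr1a encodes the main mouse type 1 receptor of angiotensin II and lies on chromosome 13 from 30336356 to 30382867. Agtr1a stood at 4.41, 6.47, 2.49 and 3.27 CPM in soft 1 to 4 and at 4.55, 3.85, 4.23 and 5.46 CPM in stiff 1 to 4. The stiff libraries all fell inside the soft range. Stiff over soft, the log2 fold change was 0.12 (SE 0.52), from 70 to 187 counts per library, and the interval from 0.505-fold to 2.34-fold was wide. Other angiotensin receptors, named after their values were seen, were sparse. Agtr1b, the second type 1 receptor of mice, and Mas1, the receptor of a shorter angiotensin peptide, were at 0 in all 8 libraries. Agtr2, the type 2 receptor, had counts in 2 libraries only, soft 3 at 0.747 CPM and stiff 3 at 0.690 CPM.

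Among adrenergic receptors, Adra1b had the lowest unadjusted p of the 8 tested genes and Adra1a was detected in 1 library. Adra1b encodes the alpha-1B receptor, 1 of the Gq-coupled catecholamine receptors of the heart, and lies on chromosome 11 from 43774605 to 43901250 on the minus strand. Adra1b stood at 3.49, 3.55, 6.47 and 7.13 CPM in soft 1 to 4 and at 2.47, 4.53, 1.26 and 3.71 CPM in stiff 1 to 4. Soft 3 and soft 4 lay above every stiff library, while soft 1 and soft 2 lay inside the stiff range. Soft averaged 5.16 ± 1.91 CPM and stiff 2.99 ± 1.43 CPM (SD, n = 4 each). The log2 fold change was -0.79 (SE 0.58), with an unadjusted p of 0.196 in the edgeR quasi-likelihood fit and an interval from 0.246-fold to 1.36-fold. The estimate went from -0.79 to -0.53 without stiff 3, which held 42 counts of Adra1b, and to -1.06 without stiff 2.

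Adra1a encodes the alpha-1A receptor, the other alpha-1 subtype known from cardiomyocytes, and lies on chromosome 14 from 66635251 to 66771240. It had 31 counts in stiff 2, or 1.06 CPM, and 0 counts in each of the other 7 libraries. A count of 0 allows up to 3 counts, or 0.0876 to 0.107 CPM depending on the library, and this limit covers counting error only. Zeros were frequent at such low levels: over the 1381 coding genes with a mean of 2 to 8 counts, 64.6% of all values were 0, against 3.43% if counts varied as in Poisson sampling. Like Adra1a, which is counted among them, 534 coding genes had 10 or more counts in 1 library and 0 in the other 7, and for 47 of them that library was stiff 2. Adra1a did not pass the filter. Without the filter its unadjusted edgeR quasi-likelihood p was 0.0457 and its adjusted p 0.99985, a value that comes from stiff 2 alone.

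Adrb1 encodes the beta-1 receptor, which raises heart rate and force through cyclic AMP, and lies on chromosome 19 from 56722117 to 56725150 on the plus strand. Adrb1 stood at 18.53, 14.7, 12.2 and 19.3 CPM in soft 1 to 4 and at 12.9, 15.6, 14.99 and 11.9 CPM in stiff 1 to 4. Soft 1 and soft 4 lay above the stiff libraries, and soft 2 and soft 3 among them. Soft averaged 16.2 ± 3.31 CPM and stiff 13.8 ± 1.73 CPM (SD, n = 4 each). The log2 fold change was -0.23 (SE 0.28), with an interval from 0.569-fold to 1.29-fold. Soft 4, the highest for Adrb1, also had the highest cardiomyocyte marker sum, 23288 CPM, whereas stiff 4 combined the lowest Adrb1 with a sum of 22365 CPM. Adra1d, the third alpha-1 subtype, named after its values were seen, was present in all 8 libraries at 1.10 to 3.87 CPM.

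**Figure D3:**
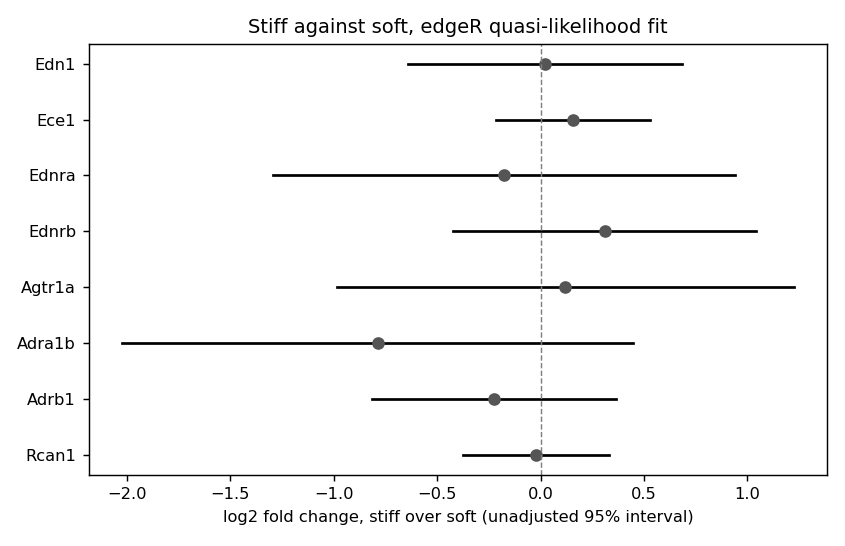
Points give the log2 fold change, stiff over soft, of the 8 tested genes on the horizontal axis and lines give the unadjusted 95% interval from the edgeR fit of 4 against 4 libraries. Every interval spans 0, the narrowest for Rcan1 (-0.37 to 0.33) and the widest for Adra1b (-2.02 to 0.45).

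Rcan1, the calcineurin inhibitor that serves as a transcriptional readout of calcineurin and NFAT, had close means on the 2 substrates. It lies on chromosome 16 from 92391951 to 92466169 on the minus strand. Rcan1 stood at 212, 257, 262 and 294 CPM in soft 1 to 4 and at 277, 239, 278 and 216 CPM in stiff 1 to 4. All stiff libraries fell inside the soft range. Soft averaged 256 ± 33.7 CPM and stiff 252 ± 30.2 CPM (SD, n = 4 each). The log2 fold change was -0.02 (SE 0.17), and the interval from 0.771-fold to 1.26-fold was the narrowest of the 8 genes, resting on 6430 to 9257 counts per library.

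The count of Rcan1 joins transcripts from 2 starts, since the table has 1 row per gene. RefSeq lists both starts on GRCm38.p6, and the calcineurin-responsive short form is known to arise from the internal start. Whether this short form differed between substrates cannot be told from the joint count. The 250 bases before each start are shown because they differ in the NFAT core motif GGAAA, or on the opposite strand TTTCC, which is in capitals. Sequences run 5′ to 3′ in the direction of the gene, chr16:92466170-92466419 for the upstream start and chr16:92400079-92400328 for the internal start, both on the minus strand.
Rcan1 upstream start: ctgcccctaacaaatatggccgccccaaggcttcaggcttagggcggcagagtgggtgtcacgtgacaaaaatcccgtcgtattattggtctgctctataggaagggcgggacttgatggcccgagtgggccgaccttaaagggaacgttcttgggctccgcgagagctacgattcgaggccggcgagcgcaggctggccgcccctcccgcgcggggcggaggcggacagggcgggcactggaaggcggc
Rcan1 internal start: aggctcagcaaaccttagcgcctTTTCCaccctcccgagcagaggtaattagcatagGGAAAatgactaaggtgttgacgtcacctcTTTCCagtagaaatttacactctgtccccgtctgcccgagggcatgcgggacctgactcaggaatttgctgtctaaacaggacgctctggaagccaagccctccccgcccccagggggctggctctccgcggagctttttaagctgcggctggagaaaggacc

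The upstream start had 0 matches to GGAAA and the internal start had 3, at bases 227 to 223, 193 to 189 and 163 to 159 before the start. Of 32851 promoter entries of the same length, 55.6% held at least 1 match and 6.39% held 3 or more. The internal start also held 1 match to the AP-1 motif TGANTCA at bases 110 to 104, which overlaps none of the others and was present in 6.75% of entries. Among the other entries, 1 start of Adra1b held this motif. Promoter entries were found for 7 of the 9 genes, 12 entries in all. GGAAA had 1 match before the start of Edn1, Ednra and Adrb1 and before 2 of the 4 starts of Ece1, and 0 before Ednrb and the 2 starts of Adra1b. The Edn1 promoter also held 1 match to CATTCC, the TEAD motif, which 12.6% of entries hold; GATAA and TATAAA had 0 matches in any of the 12 entries. Both strands were searched, and these matches describe letters, not binding.

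The genes varied by very different amounts between libraries. On log2 CPM (prior count 2), the highest library exceeded the lowest 1.39-fold for Rcan1, 1.45-fold for Ece1 and 1.62-fold for Adrb1. The same range was 2.56-fold for Agtr1a, 2.85-fold for Edn1 and 3.26-fold for Ednrb, and it reached 5.43-fold for Adra1b and 5.51-fold for Ednra. The median SD within a substrate was 0.51 on the log2 scale over the 8 genes and 0.41 over all tested genes.

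Each gene was also set beside the coding genes whose levels followed it most closely over the 8 libraries, by Pearson correlation of log2 CPM among 9827 tested genes with a mean of at least 10 CPM. These are the highest of many values and describe these libraries only. Edn1 lay nearest to Fig4, a phosphoinositide phosphatase (r = 0.981), and Tox4 (r = 0.974). Rcan1 lay nearest to Mtcl1, a microtubule crosslinking protein (r = 0.985), and Nfil3, a basic leucine zipper repressor (r = 0.945). Ednrb lay nearest to Ipp (r = 0.964) and Hmgcs1, an enzyme of cholesterol synthesis (r = 0.961), which was lowest in library 4 of each substrate, at 239.7 and 296 CPM. The nearest genes were Prkrip1 (r = 0.965) for Ednra, Ano10 (r = 0.940) for Ece1 and Alkbh8 (r = 0.956) for Agtr1a. They were Plp2 (r = 0.956) for Adra1b and Gm5514 (r = 0.912) for Adrb1.

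The rest of the pathway was read from 9 lists of 131 further genes, of which 125 had a count and 118 were tested. Of the 118, 0 were called, and 0 were at an unadjusted p under 0.05 in the edgeR fit, where 0.925% of all tested genes lay. That number was 1 with the edgeR replicate block, 1 with DESeq2 and 3 with DESeq2 and the block. Over all 14059 tested genes, the same fits put 360, 177 and 600 genes there. The highest number of any alternative was 4 of 119 pathway genes, without soft 4, where 213 of all genes tested in that fit lay. It was 2 of 118 without soft 2 and 2 of 119 without stiff 4, with 272 of all tested genes in each fit. Whether these shares differ was not tested. In the reported fit, estimates of the 118 pathway genes were higher on stiff for 66 and lower for 52, with a median log2 fold change of 0.02. Over all tested genes 6759 were higher and 7300 lower.

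**Figure D4:**
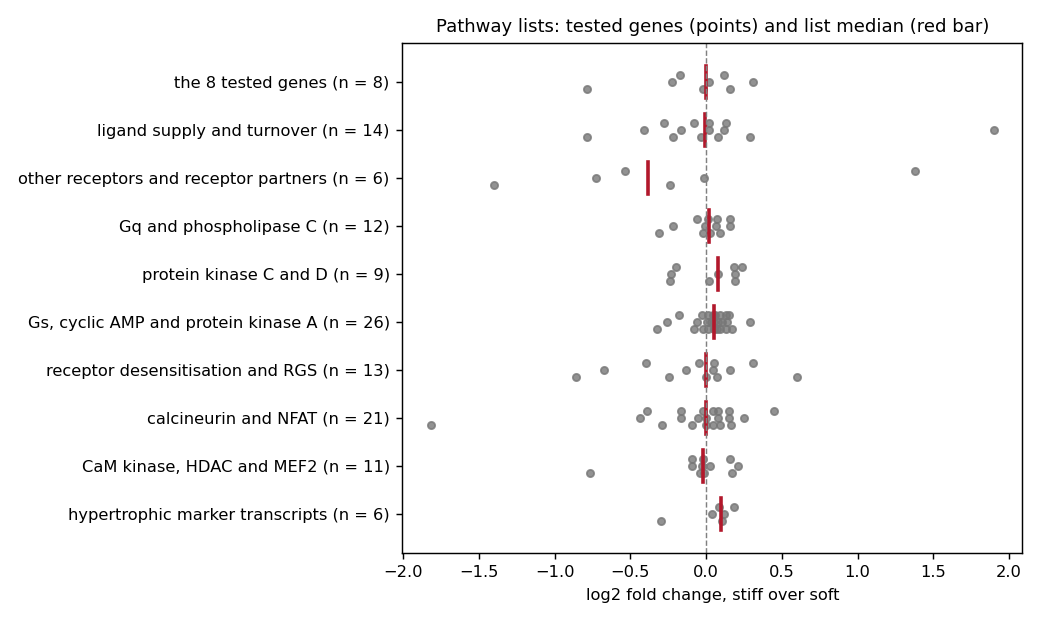
Points give the log2 fold change, stiff over soft, of each tested gene in the 8 genes described and in the 9 pathway lists, and red bars give the list medians. Medians lie between -0.39 (other receptors) and 0.10 (hypertrophic marker transcripts), and single points beyond 1 to either side include the low-level genes Agt and Adra2a.

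For ligand supply and turnover, 14 of 21 genes were tested, with 7 higher and 7 lower estimates and a median of -0.01. Mme, the membrane protease neprilysin that degrades small peptides, stood at 7.17 ± 3.80 CPM (soft) and 4.15 ± 0.688 CPM (stiff) (SD, n = 4 each; log2 fold change -0.79, SE 0.50). Agt, the angiotensin precursor, stood between 0.213 and 0.844 CPM in soft and between 0.494 and 4.02 CPM in stiff libraries, where stiff 3 held the highest value (log2 fold change 1.90, SE 1.20, and 1.13 without stiff 3). The renin gene Ren1, the adrenaline-forming enzyme gene Pnmt and the noradrenaline transporter gene Slc6a2 were at 0 in all 8 libraries, and they are named after their values were seen. Of other receptors and receptor partners, 6 of 11 were tested, 1 higher and 5 lower, with a median of -0.39. Agtrap, which promotes internalisation of the angiotensin receptor, stood at 47.9 ± 12.2 CPM (soft) and 40.6 ± 4.10 CPM (stiff) (log2 fold change -0.24, SE 0.22). Adra2a, an inhibitory alpha-2 receptor, was below 1 CPM in all soft libraries and ran from 0.0340 to 3.06 CPM on stiff (log2 fold change 1.38, SE 1.49), an estimate that was negative without stiff 3, at -0.05.

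In the Gq branch, 12 of 12 genes of Gq and phospholipase C were tested, with 7 higher and 5 lower estimates and a median of 0.02. Plcb3, a phospholipase C activated by Gq, stood at 48.7 ± 5.67 CPM (soft) and 39.2 ± 5.02 CPM (stiff) (log2 fold change -0.31, SE 0.20). For Itpr1, a calcium release channel of the endoplasmic reticulum, it was 0.16 (SE 0.18). Of 9 protein kinase C and D genes 6 were higher and 3 lower, with a median of 0.08. Prkd3, a protein kinase D, stood at 166 ± 18.51 CPM (soft) and 195 ± 19.0 CPM (stiff), a log2 difference of 0.24 (SE 0.16), and Prkcd, protein kinase C delta, had -0.20 (SE 0.18).

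In the Gs branch, 26 of 26 genes were tested, with 19 higher and 7 lower estimates and a median of 0.05. Akap12, a scaffold that holds protein kinases A and C near beta receptors, was the only 1 of the 118 genes whose substrates did not overlap, against 1.29% of all tested genes. Akap12 stood at 348, 297, 279 and 292 CPM in soft 1 to 4 and at 234, 221, 242 and 272 CPM in stiff 1 to 4. Its log2 fold change was -0.33 (SE 0.16), with an unadjusted p of 0.0556 and an adjusted p of 0.99997 by edgeR. With the replicate block the unadjusted p of Akap12 was 0.0305 in edgeR and 0.0185 in DESeq2, with adjusted p-values of 1 and 0.977. Gnai1, an inhibitory G protein subunit, had 0.29 (SE 0.23). Prkar1a, a regulatory subunit of protein kinase A, stood at 933 ± 150.3 CPM (soft) and 939 ± 48.0 CPM (stiff).

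Among receptor desensitisation and RGS genes, 13 of 14 were tested, 6 higher and 7 lower, with a median of 0.00. Grk5, a receptor kinase abundant in heart, stood at 175 ± 33.1 CPM (soft) and 195 ± 34.6 CPM (stiff). The lowest p-values belonged to Grk4, a related kinase (log2 fold change -0.68, SE 0.42), and Rgs5, a regulator of G protein signalling that also marks pericytes and stood on that marker list (-0.86, SE 0.76). Of 21 calcineurin and NFAT genes 11 were higher and 10 lower, with a median of 0.00. Nfatc4 stood at 32.4 ± 7.93 CPM (soft) and 23.9 ± 4.56 CPM (stiff) (log2 fold change -0.44, SE 0.25), and Nfatc1 at 13.3 ± 2.34 and 18.1 ± 1.39 CPM (0.45, SE 0.27). Rcan2, a relative of Rcan1, stood at 409.8 ± 111 CPM (soft) and 404 ± 124 CPM (stiff).

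Of 11 genes of CaM kinase, HDAC and MEF2, which carry calcium signals to transcription, 4 were higher and 7 lower, with a median of -0.02. The log2 estimate was -0.76 (SE 0.49) for Camk2b, a CaM kinase II subunit, and 0.17 (SE 0.17) for Hdac4, a class II deacetylase. Camk2d, the main cardiac CaM kinase II gene, stood at 446 ± 54.5 CPM (soft) and 433 ± 63.8 CPM (stiff). Of 6 hypertrophic marker transcripts 5 were higher and 1 lower, with a median of 0.10. Nppb and Nppa, the natriuretic peptide genes, had log2 fold changes of 0.12 (SE 0.23) and 0.11 (SE 0.21), and the Nppb estimate was -0.02 without soft 3 and -0.05 without stiff 2.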

How the data were processed

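The authors deposited raw read counts per gene for coding and noncoding genes; the coding table was used here. The build is GRCm38 and the tools include HTSeq 0.6.1, TopHat2 2.0.14, FastQC 0.11.2, edgeR, DESeq2, Cufflinks, Bowtie2 and TopHat, per the submitters' processing notes, which give no roles; strand handling and filters: not given in the sources used here. Groups follow the substrate label. Library numbers follow sample order and match the final digit of each library code. The labels tie them to no litter or day, and libraries were compared unpaired. The leading digits of the code are shared within each substrate and differ between soft and stiff. The labels do not say what these digits mark, and whatever they mark cannot be told apart from the substrate. Deviations from the group means correlated at 0.104 to 0.305 between libraries of the same number and at -0.228 to 0.130 otherwise. A chi-square comparison found no duplicate libraries among 28 pairs.

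Of 29844 rows, 29150 matched a symbol; positions and promoter sequences are RefSeq's on GRCm38.p6. The test was run with edgeR 4.0.16 in R 4.3.3: filterByExpr (minimum count 10, minimum total 15, 14059 genes kept), TMM, and the robust quasi-likelihood test of stiff against soft, with Benjamini-Hochberg adjustment over all tested genes and calls at an adjusted p under 0.05. The SE is the estimate over the root of the F statistic. Alternatives used DESeq2 1.42.0, limma-voom (limma 3.58.1), other scalings and filters, each library left out, and a replicate block. Reads carry no stated molecular identifiers and are not independent molecules.

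The genes and lists were chosen with earlier results of these data known. Named pathway genes are drawn from the 2 with the highest mean CPM and the 2 with the lowest p of each list, with exceptions stated, and some genes of the lists are not reported here; markers of 7 cell types were fixed with the lists.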

Additional observations from a re-analysis of the deposited data

Results flagged for a closer look

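In groups of 4 libraries, a library was listed here when its gap to the nearest of the others, as a share of the group's range, passed Dixon's 95% critical value. This held in 5 of 96 groups examined, near the 1 in 20 that chance gives. Adra1a stood at 1.06 CPM in stiff 2 and at 0 in the other stiff libraries. Prkcd, a protein kinase C, stood at 116 CPM in soft 2 and at 95.4 to 97.9 CPM in the other soft libraries. Grk5 stood at 143 CPM in stiff 3 against 206 to 217 CPM in the other stiff libraries, and Grk4 at 3.45 CPM in stiff 3 against 7.59 to 8.37 CPM. Nfatc4 stood at 17.1 CPM in stiff 4 against 25.2 to 26.7 CPM in the other stiff libraries.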

How the results depend on the processing

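None of the 9 genes and no pathway gene was called under any alternative run. Over all coding genes, 0 were called except with limma-voom and the replicate block, chosen after seeing the data, which called 5, of which 0 were among the genes described or their pathway lists. The number at an unadjusted p under 0.05 was 130 in the reported fit, 122 to 272 with 1 library left out (272 without soft 2 or without stiff 4, 230 without stiff 1, 213 without soft 4, 199 without stiff 3), 473 without the filter, 360 with the replicate block, 440 with limma-voom and the block and 600 with DESeq2 and the block. Soft 1 deviated most like stiff 2 (r = 0.112) rather than stiff 1 (r = 0.104). With the replicate block, the Edn1 estimate was 0.08 (SE 0.18) on the log2 scale and no call of the 9 genes changed. With 1 library left out, Ednrb (0.10 to 0.55), Ece1 (0.10 to 0.28), Adra1b (-1.06 to -0.53) and Adrb1 (-0.34 to -0.12) kept their sign, while Edn1 (-0.20 to 0.25), Ednra (-0.59 to 0.13), Agtr1a (-0.061 to 0.42) and Rcan1 (-0.10 to 0.058) did not. Of the 18 pathway genes named for their low p, 16 kept their sign under all alternatives; Nppb ran from -0.045 to 0.29 with 1 library left out. Adra2a ran from -0.054 to 1.79 in the same way, and was at -0.29 with limma-voom, -0.30 with the replicate block and -0.34 with DESeq2 and the block. Mean counts per library were lowest for Adra1a (3.88), Adra1b (122), Agtr1a (132) and Ednra (182); what part counting error has in their spread was not tested.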
